A study of Mus musculus with 6 samples.

Results

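The mouse genome encodes 6 actins, and the RNA of all of them was followed here in heart muscle: Acta1 and Actc1, the skeletal and cardiac α-actins of the sarcomere, Acta2 and Actg2, the vascular and enteric smooth muscle actins, and Actb and Actg1, the cytoplasmic β- and γ-actins. They were taken by symbol from the gene tables, where they are 6 of 17891 genes listed with a symbol in at least 1 sample, and each was listed in all 6 samples. The tissue was myocardium of 6-week-old C57BL/6 mice, in 3 NS-DADm samples and 3 wild type (WT) samples. NS-DADm mice carry, in the whole body, knock-in mutations in the DADs of nuclear receptor corepressors, including NCOR (gene Ncor1). The DAD, or deacetylase activating domain, is the stretch through which these corepressors bind and switch on the histone deacetylase HDAC3. The mutation is present in every cell type of the sample, and the labels do not state whether the 3 samples of a group are 3 mice, so a p-value here weighs a difference against the spread of these samples only, which may be technical.

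Actin polymerises into the thin filament of the sarcomere, along which myosin pulls, and into the cytoskeleton of every cell. The isoforms are nearly identical proteins made from separate genes, and each tissue uses its own mixture. Actc1 is the main actin of the adult heart, while Acta1 is the adult actin of skeletal muscle, is abundant in the fetal heart, and is known to return in hearts under load. Actin genes are known targets of serum response factor (SRF), which binds a DNA element called the CArG box. Its coactivators of the MRTF family are held back by unpolymerised actin, so that actin itself feeds back on these genes.

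RefSeq promoter windows on the assembly GRCm38.p6, running from 250 bases before to 50 bases after the annotated start, were at hand for Acta1, Actc1, Acta2 and Actg1. The 250 bases before the start of both sarcomeric actins are shown because these genes share a role and differed in how far they moved, with the CArG box in capitals and both read 5′ to 3′ on the minus strand. Acta1 is at chr8:123894776-123895025 and Actc1 at chr2:114052876-114053125.
Acta1: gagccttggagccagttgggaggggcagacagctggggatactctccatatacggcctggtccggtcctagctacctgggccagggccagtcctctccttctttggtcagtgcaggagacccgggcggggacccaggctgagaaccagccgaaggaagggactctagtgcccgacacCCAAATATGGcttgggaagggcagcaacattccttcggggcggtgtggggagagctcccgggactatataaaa
Actc1: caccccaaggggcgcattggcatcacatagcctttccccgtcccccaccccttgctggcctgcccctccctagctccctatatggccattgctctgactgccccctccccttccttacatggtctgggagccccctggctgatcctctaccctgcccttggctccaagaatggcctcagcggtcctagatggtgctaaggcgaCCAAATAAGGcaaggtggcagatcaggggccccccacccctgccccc

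An exact CArG box began 73 bases before the start in Acta1, 47 before it in Actc1 and 90 before it in Actg1, where it read CCATATATGG. The Acta2 window held none. It held 2 near matches with a single C or G in the core, CCCTATATGG at 84 and CCTTGTTTGG at 34 bases before the start. Near matches were also found in the windows of Acta1, 2 of them, and of Actc1, 3 of them. The motif is its own reverse complement, so a match counts for both strands, and 535 of 32851 windows of this length, or 1.63%, held an exact box, while 9.98% held an exact or near one. Among the 28 genes of a list of SRF targets of the cytoskeleton, 22 had a window and 6 of these an exact box. That count is per gene, whereas the shares above are per window, and the list was chosen as SRF targets. The motif TATAAA, searched on both strands and found in 13.6% of windows, lay 7 bases before the annotated start in Acta1 and 33 bases after it in Actc1. All distances are from annotated starts, and whether transcription begins there was not tested. These matches describe the letters in the windows, and both the gene that rose in NS-DADm myocardium and members that did not pass the test carry the box.

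**Figure D1:**
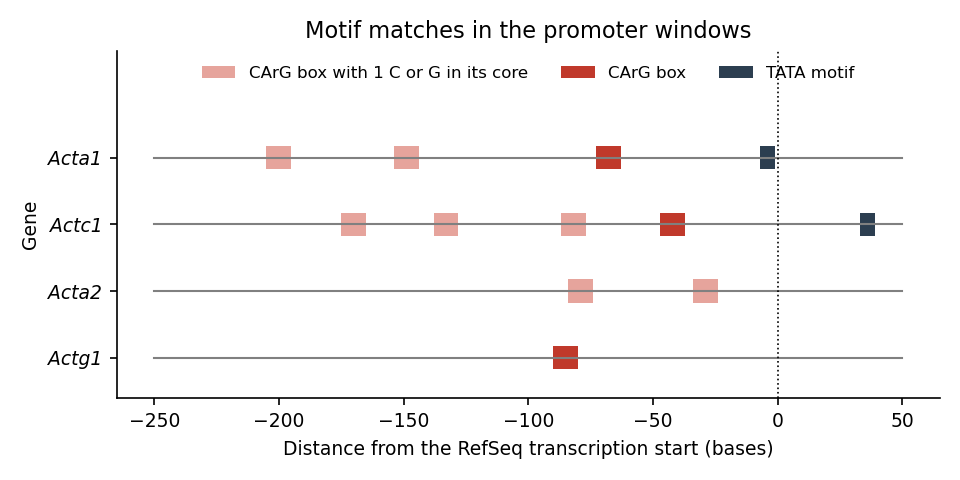
Position of motif matches in the RefSeq promoter windows of 4 actin genes, with the distance from the annotated transcription start in bases on the x axis and 1 line per gene. Red blocks are exact CArG boxes (Acta1, Actc1 and Actg1), pale blocks near matches with 1 C or G in the core, and dark blocks the TATA motif, at 7 bases before the start in Acta1 and 33 after it in Actc1.

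Per the file headers, the submitters estimated a count per gene and scaled it to FPKM, which divides by transcript length and by the library's reads or fragments, so levels of different genes can be set side by side. Libraries held 12262523 to 12758311 counts in NS-DADm and 10183792 to 11205221 in WT. The RNA of Ncor1 does not check the labels, since the mutation alters the protein. Ncor1 had 24.3 ± 1.01 FPKM in NS-DADm and 22.9 ± 1.15 in WT (SD, n = 3 each), and did not pass the test. Ventricular muscle genes were abundant in all samples, with Myl2 at 17990 ± 2390 FPKM in NS-DADm and 19150 ± 2480 in WT. Libraries stood apart in atrial transcripts, which mark the upper chambers of the heart. The 12 atrial markers summed to 3870, 619 and 6701 FPKM in NS-DADm 1, 2 and 3, and to 583, 312 and 4805 FPKM in WT 1, 2 and 3, so that NS-DADm 1, NS-DADm 3 and WT 3 were high and the other 3 libraries low.

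Actc1 was the most abundant actin in every sample and ranked 3rd of all genes by FPKM in each. In NS-DADm the order below it was Acta1, Actb, Actg1, Acta2 and Actg2 in all 3 samples, and in WT it was Actb, Actg1, Acta1, Acta2 and Actg2 in all 3. Acta1 was thus the second actin of every NS-DADm sample and the fourth of every WT sample, while the other members kept their order relative to each other. Within each group, the sample ranges of Actb and Actg1 overlapped, although Actb was the higher of the pair in each of the 6 samples. In WT the range of Acta1 also overlapped those of Actb and Actg1, but in NS-DADm its lowest sample lay above the highest of Actb and of Actg1.

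**Figure D2:**
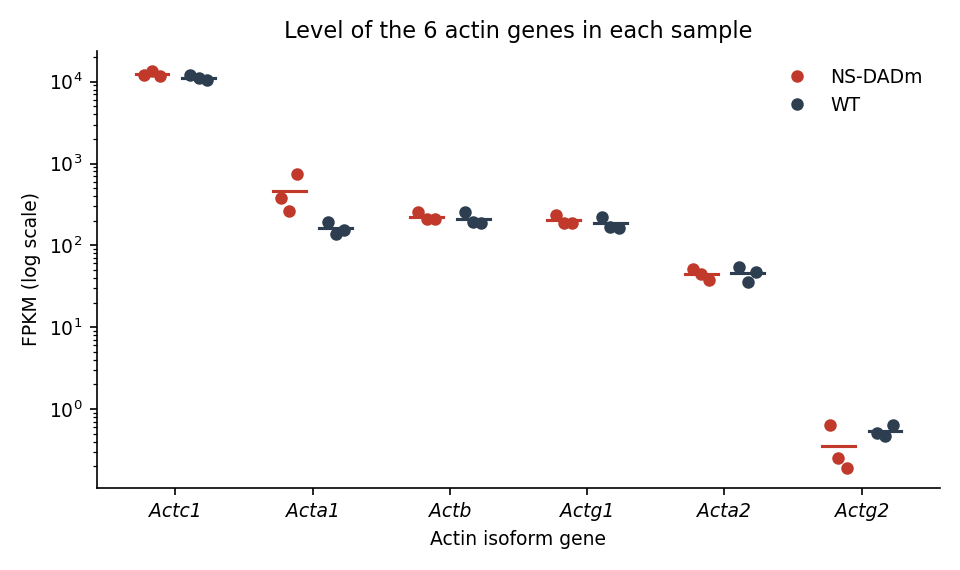
FPKM on a log axis for the 6 actin genes, with 1 point per sample, NS-DADm left of WT, and a line at each group's mean (n = 3). Acta1 is at 261 to 748 FPKM in NS-DADm and at 138 to 192 in WT, and the points of the other 5 genes overlap between the groups.

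Of the 5 actin genes with enough counts to be tested, Acta1 rose in NS-DADm myocardium and the other 4 did not pass the test, a quasi-likelihood test (edgeR) adjusted by the Benjamini-Hochberg method over 13130 genes, with a threshold of 0.05. By the same test 420 genes changed, 3.2% of those tested, and the median log2 fold change over all of them was 0. The members were chosen as a family and with earlier results of these data known, so 1 of 5 is a description.

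Acta1 (gene ID 11459), the skeletal α-actin, had 376, 261 and 748 FPKM in NS-DADm 1, 2 and 3, against 192, 138 and 155 FPKM in WT 1, 2 and 3. The lowest NS-DADm sample was 1.36 times the highest WT sample, so the groups did not overlap, as was the case for 23.2% of all tested genes. The counts behind these levels were 6593, 4703 and 12982 in NS-DADm and 2909, 1972 and 2467 in WT. Acta1 averaged 461.9 ± 254.7 FPKM in NS-DADm and 161.7 ± 27.7 FPKM in WT (SD, n = 3 each, here and for other values with ±), and rose 2.90-fold (log2 fold change 1.54, SE 0.30, adjusted p = 0.0252, edgeR). Among the 173 genes that rose and had a mean of at least 5 FPKM, only 2 had a larger fold change.

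The size of the rise differed from sample to sample. NS-DADm 3 had 2.87 times the level of NS-DADm 2, whereas the highest WT sample had 1.4 times the lowest. On the scale of log2 CPM, counts scaled to library size, the SD of Acta1 was 0.75 in NS-DADm, larger than that of 99.6% of the 7768 tested genes with a mean of at least 5 FPKM, and 0.23 in WT, larger than that of 92.9%. The median gene had an SD of 0.09 in each group. Without NS-DADm 3 the rise was 2.02-fold and still passed (log2 fold change 1.01, adjusted p = 0.0134, edgeR), and without NS-DADm 2 it was a log2 fold change of 1.81 (adjusted p = 0.00675). The call ended without NS-DADm 1 (adjusted p = 0.0544, edgeR), WT 1 (0.0701), WT 2 (0.123) or WT 3 (0.0568), and in limma fits of log2(FPKM + 1) and of log2(FPKM + 0.1) (0.0764 and 0.0753).

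Libraries with more atrial RNA included those with the most Acta1 among NS-DADm, but not among WT. Among libraries high in atrial transcripts Acta1 stood at 376 and 748 FPKM in NS-DADm, against 155 FPKM in WT. Among those low in them it stood at 261 FPKM in NS-DADm, against 192 and 138 FPKM in WT. With the mean level of atrial markers as a covariate Acta1 rose by 1.26 on the log2 scale (SE 0.30, adjusted p = 0.0436, edgeR), and with high or low atrial content as a covariate by 1.29 (SE 0.29, adjusted p = 0.0346). In bulk tissue, a change in the number of cells of a type and a change in RNA per cell cannot be told apart.

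Actc1 (gene ID 11464), the cardiac α-actin, had 12066, 13671 and 11738 FPKM in NS-DADm, against 12137, 10999 and 10476 FPKM in WT. The groups overlapped through WT 1, which was above NS-DADm 1 and NS-DADm 3. Actc1 averaged 12490 ± 1034 FPKM in NS-DADm and 11200.0 ± 850 FPKM in WT, and did not pass (log2 fold change 0.18, SE 0.08, adjusted p = 0.286, edgeR). With high or low atrial content as a covariate, added after the data were seen, it passed, at a log2 fold change of 0.25 (SE 0.06, adjusted p = 0.0411, edgeR). It did not pass with the planned atrial score, the mean level of atrial markers without Nppa (0.25, adjusted p = 0.0756, edgeR). Nor did it pass with the atrial score with Nppa as a covariate (0.25, adjusted p = 0.0707).

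**Figure D3:**
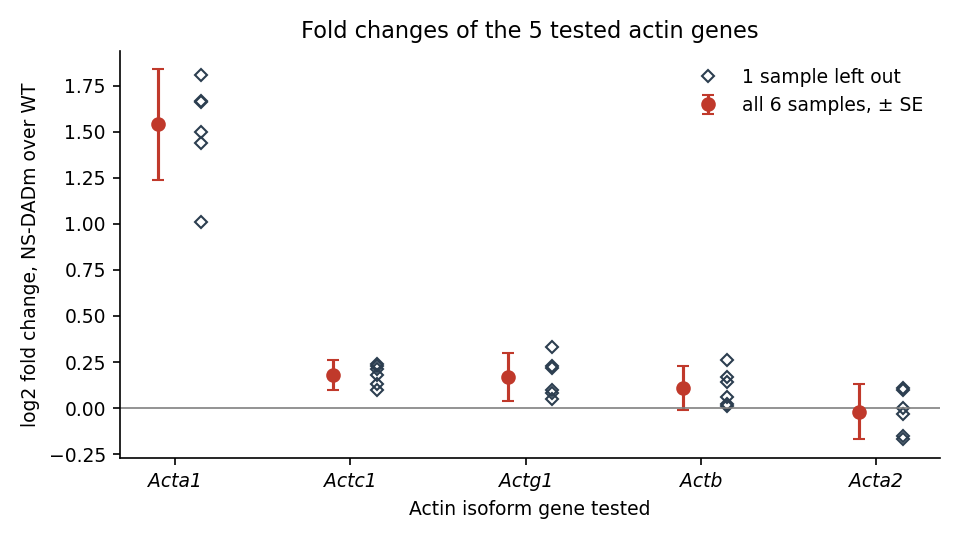
Log2 fold change, NS-DADm over WT, of the 5 tested actin genes, where filled points with bars are the edgeR estimate ± SE from all 6 samples and open diamonds are estimates with 1 sample left out. Acta1 lies between 1.01 and 1.81 with any 1 sample left out, and Acta2 falls on both sides of 0, from -0.17 to 0.11.

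The ratio of the 2 sarcomeric actins within a sample does not depend on how libraries are scaled. There were 32.1, 52.4 and 15.7 FPKM of Actc1 for each FPKM of Acta1 in NS-DADm 1, 2 and 3, against 63.2, 79.9 and 67.4 in WT 1, 2 and 3. Every NS-DADm sample thus had less Actc1 for each Acta1 than any WT sample. The log2 ratio of Acta1 to Actc1 averaged -4.89 ± 0.87 in NS-DADm and -6.13 ± 0.17 in WT, a difference of 1.23. Its exact two-sided permutation p was 0.1, the smallest that 3 against 3 samples allow, and 0.3 after Benjamini-Hochberg adjustment over the 3 ratios computed.

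Of the smooth muscle actins, Acta2 (gene ID 11475), the marker of vascular smooth muscle and of myofibroblasts, had 52.0, 44.5 and 37.3 FPKM in NS-DADm, against 54.7, 35.9 and 47.9 FPKM in WT. The groups overlapped nearly throughout. It did not pass (log2 fold change -0.02, SE 0.15, adjusted p = 0.955, edgeR), and its fold change was positive without NS-DADm 3 or WT 1. Actg2 (gene ID 11468), the enteric smooth muscle actin, had 10, 4 and 3 counts in NS-DADm, against 7, 6 and 9 in WT, which is 0.63, 0.25 and 0.19 FPKM against 0.51, 0.47 and 0.63 FPKM. These counts were too low to pass edgeR's filter, and NS-DADm 1 was at or above every WT sample in FPKM while NS-DADm 2 and 3 were below. The log2 ratio of Acta2 to Actg2 was 7.15 ± 0.68 in NS-DADm and 6.42 ± 0.28 in WT (exact permutation p = 0.2), a difference of 0.74 that was 0.15 when 1 FPKM was added to both genes.

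The 12 markers of vascular smooth muscle gave a different picture from Acta2, with 11 positive fold changes and a median log2 fold change of 0.48, but none of them passed. Their summed FPKM was 165, 109 and 143 in NS-DADm 1, 2 and 3, against 106, 96.4 and 143 in WT 1, 2 and 3. Myh11, the myosin heavy chain of smooth muscle, had 8.79, 4.93 and 5.76 FPKM in NS-DADm, against 4.20, 4.04 and 5.84 FPKM in WT (log2 fold change 0.49, SE 0.20, adjusted p = 0.238, edgeR). The most abundant were Myl9 and Smtn, a smooth muscle cytoskeletal protein, which had 35.3 ± 2.84 FPKM in NS-DADm and 38.4 ± 3.66 FPKM in WT. The sum was highest in the 3 libraries that were high in atrial transcripts. Of 10 pericyte markers 2 had a positive fold change (median -0.10), and of 12 fibroblast and myofibroblast markers 10 had (median 0.17), and no marker on either list passed. Dcn and Lum, matrix proteoglycans of fibroblasts, had 403 ± 40.0 and 56.9 ± 5.99 FPKM in NS-DADm and 394 ± 40.1 and 68.6 ± 4.45 FPKM in WT. Abcc9, a potassium channel subunit of pericytes, had 57.8 ± 6.15 FPKM in NS-DADm and 69.4 ± 2.65 FPKM in WT. Rgs5, the most abundant pericyte marker, had 167 ± 14.6 FPKM in NS-DADm and 214 ± 16.4 FPKM in WT (adjusted p = 0.0793, edgeR), and passed with the atrial score with Nppa, or high or low atrial content, as a covariate (0.046 and 0.0367). Both covariates were added after the data were seen.

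The cytoplasmic actins are made by every cell type of the heart. Actb (gene ID 11461) had 254, 210 and 207 FPKM in NS-DADm, against 253, 194 and 186 FPKM in WT. Actg1 (gene ID 11465) had 238, 186 and 189 FPKM in NS-DADm, against 225, 166 and 165 FPKM in WT. In both genes sample 1 was the highest of its group, and the groups overlapped. Neither passed, with a log2 fold change of 0.11 for Actb (SE 0.12, adjusted p = 0.69, edgeR) and 0.17 for Actg1 (SE 0.13, adjusted p = 0.545). Their log2 ratio within a sample, Actb over Actg1, was 0.13 ± 0.04 in NS-DADm and 0.19 ± 0.03 in WT (exact permutation p = 0.3). Across the samples it ran from 0.09 to 0.22, the narrowest range of the 3 ratios.

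Expected counts of Actb were not whole in any sample, while those of the other members were, so some reads at Actb were divided between it and other genes by the authors' estimator. Coding sequences of the actins are very similar, and how reads that fit several of them were assigned is not given in the sources used here, so small differences between members are uncertain. Within NS-DADm the Acta1 level did not follow that of Actc1: NS-DADm 2, with the most Actc1, had the least Acta1 of its group. NS-DADm 3, with the most Acta1, had the least Actc1 of its group. Within WT, however, WT 1 had the most of both genes.

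Summed over the 6 genes, actin RNA was 12987, 14372 and 12920 FPKM in NS-DADm, against 12862, 11533 and 11031 FPKM in WT. Every NS-DADm sample lay above every WT sample, NS-DADm 3 only narrowly above WT 1, and the sum was not tested. Groups did not overlap in 23.2% of all tested genes, while they did for Actc1, the bulk of the sum. Actin RNA made up 1.84%, 2.02% and 1.83% of all counts in NS-DADm, and 1.81%, 1.62% and 1.56% in WT. Actc1 held 92.9%, 95.1% and 90.8% of the summed FPKM in NS-DADm and 94.4%, 95.4% and 95.0% in WT. Acta1 held 2.90%, 1.82% and 5.79% in NS-DADm and 1.49%, 1.19% and 1.41% in WT. The shares of Acta1 did not overlap between the groups, and those of Actc1 did, since NS-DADm 2 lay within the WT range.

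The share of Acta1 averaged 3.50% ± 2.06 in NS-DADm and 1.37% ± 0.154 in WT, 2.14 percentage points higher (exact permutation p = 0.1, adjusted p = 0.45 over the 6 shares). The share of Actc1 differed by -1.94 points (exact permutation p = 0.3), with means of 93.0% ± 2.13 in NS-DADm and 94.9% ± 0.503 in WT. The shares of Acta2, Actg2, Actb and Actg1 differed by -0.0573, -0.0019, -0.106 and -0.032 points (exact permutation p = 0.2 to 0.9). Shares of a sum are not independent, and no share could pass at this sample size. Leaving Actc1 out, Acta1 made up 40.9%, 37.2% and 63.3% of the remaining actin in NS-DADm 1, 2 and 3, against 26.5%, 25.7% and 28.0% in WT 1, 2 and 3.

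**Figure D4:**
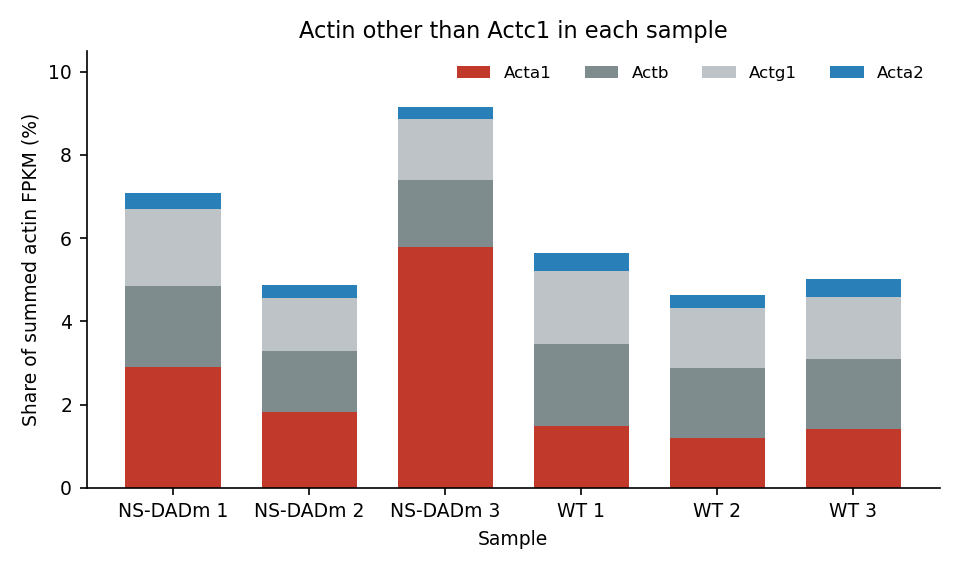
Share of summed actin FPKM, in percent, held by Acta1, Actb, Actg1 and Acta2 in each sample, stacked, with the 3 NS-DADm samples left of the 3 WT samples; Actc1 makes up the rest and Actg2 is too small to draw. The Acta1 block runs from 1.82% to 5.79% in NS-DADm and from 1.19% to 1.49% in WT, while the other blocks are of similar height in the groups.

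Acta1 and Actg1 each had 2 transcript models in the authors' transcript tables, and the other members had 1. The shorter Acta1 model, of 1481 bases, held 99.2% to 99.5% of the gene's counts in NS-DADm and 99.6% to 100% in WT. The longer Acta1 model, of 1571 bases, had 30.3, 36.8 and 64.6 counts in NS-DADm, against 0, 7.91 and 9.68 in WT. In FPKM it had 1.63, 1.92 and 3.5 in NS-DADm, against 0, 0.52 and 0.57 in WT, so its groups did not overlap. The share of all transcripts without overlap was not computed. Neither model passed over 17498 transcripts, of which 0.0972% were called (adjusted p = 0.259 for the shorter and 0.469 for the longer, edgeR). For the shorter model the log2 fold change was 1.53 (SE 0.40), close to that of the gene, with a wider error. In Actg1 the longer model, of 1965 bases, held 18.4%, 20.6% and 21.8% of the counts in NS-DADm and 19.4%, 9.51% and 15.5% in WT. The groups overlapped through WT 1, and the model did not pass (log2 fold change 0.56, SE 0.35, adjusted p = 0.643, edgeR).

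Acta1 is the main actin of skeletal muscle, and several defining markers of that tissue were at or near 0, while others that were tested were not. Myh1, Myh2, Myh3 and Myh4, the skeletal myosin heavy chains, reached at most 0.10 FPKM in any sample, and Myod1, a transcription factor of skeletal muscle, at most 0.06. Mylpf, the fast skeletal myosin light chain, had 1.17, 0.92 and 0.95 FPKM in NS-DADm, against 0.68, 1.01 and 1.04 FPKM in WT, and its groups overlapped. Of the 17 skeletal markers 4 had enough counts to be tested and none passed. Among these 4, Mybpc2, the fast skeletal myosin binding protein C, had 8.04 ± 0.538 FPKM in NS-DADm and 7.05 ± 1.26 FPKM in WT (adjusted p = 0.396, edgeR). Casq1, the calsequestrin of fast skeletal muscle, had 8.76, 6.12 and 13.4 FPKM in NS-DADm, against 2.78, 5.51 and 7.54 FPKM in WT (log2 fold change 0.85, SE 0.33, adjusted p = 0.209, edgeR), in the same order as Acta1 within NS-DADm. The summed level of the list was 849 to 923 FPKM in NS-DADm and 872 to 961 FPKM in WT, nearly all of it Eno3, an enolase also made by heart muscle. In NS-DADm 3, the sample with the most Acta1, Myh1 and Myh4 were not listed and so counted as 0. Casq1 and Mybpc2, at 13.4 and 8.63 FPKM, were there at their highest of the 6 samples.

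**Figure D5:**
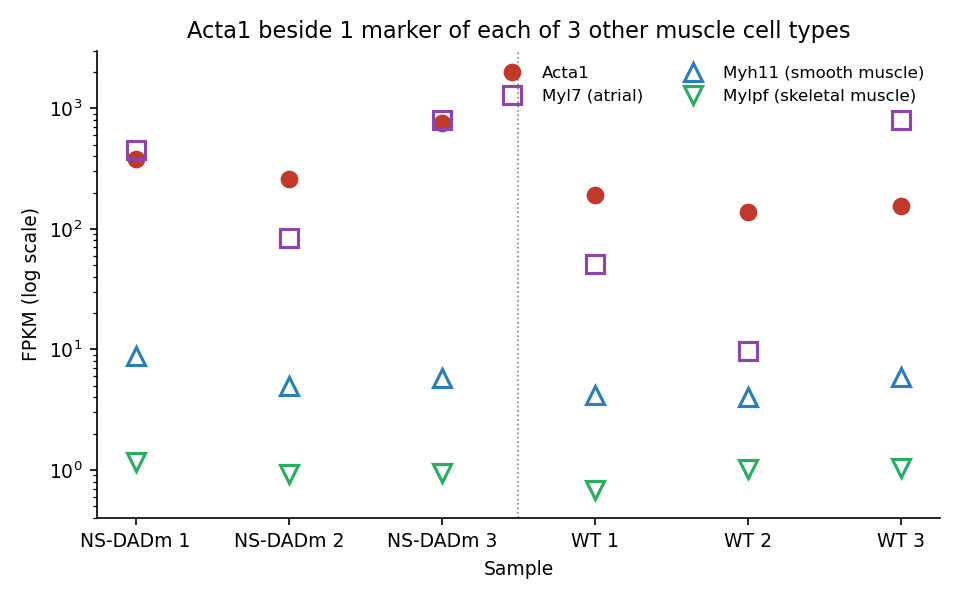
FPKM on a log axis of Acta1 (filled circles) and of 1 marker each of atrial muscle (Myl7, squares), smooth muscle (Myh11, upright triangles) and skeletal muscle (Mylpf, inverted triangles) in the 3 NS-DADm samples and, right of the dotted line, the 3 WT samples. Myl7 is high in NS-DADm 1, NS-DADm 3 and WT 3, and Acta1 is high in the first pair of these but at 155 FPKM in WT 3, while Mylpf stays at or below 1.17 FPKM.

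Genes that control actin transcription differed in both directions. Of 21 regulators in the SRF and MRTF pathway 9 had a positive fold change, and the median log2 fold change was -0.02, against 0 over all genes. Against 3.2% called over all tested genes, 2 of these regulators rose and none fell. Those that rose were Abra, which encodes an actin-binding activator of SRF in striated muscle, at 38.0, 45.2 and 27.8 FPKM in NS-DADm, against 16.2, 22.3 and 23.4 FPKM in WT (1.83-fold, adjusted p = 0.0331, edgeR), and Fhl1, a LIM domain protein of the sarcomere (1.29-fold, adjusted p = 0.0295). Abra was lowest in NS-DADm 3, the NS-DADm sample with the most Acta1, and lost its call without NS-DADm 1, NS-DADm 2, WT 1 or WT 2 (adjusted p up to 0.109). Srf had 34.4 ± 1.40 FPKM in NS-DADm and 30.3 ± 1.40 FPKM in WT (adjusted p = 0.104, edgeR), and the cofactor Myocd 9.60 ± 0.678 and 10.3 ± 0.384 (adjusted p = 0.631). Hopx, also on the list, had 156 ± 18.7 and 195 ± 10.9 FPKM (adjusted p = 0.116, edgeR). Every NS-DADm sample had more Srf and less Hopx than any WT sample. Groups did not overlap in 23.2% of all tested genes. The most abundant of the list was Fhl2, a LIM domain protein that binds SRF, at 1033 ± 82.7 FPKM in NS-DADm and 1154 ± 110 FPKM in WT (adjusted p = 0.482). Srf, Hopx and Myocd were chosen after their values were seen.

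Of 27 tested SRF targets of the cytoskeleton, 25 had a positive fold change and the median was 0.27, with 2 that rose and 1 that fell, or 11.1% called, against 3.2% of all genes. The list holds 3 of the vascular smooth muscle markers, Cnn1, Myl9 and Tagln. Myl9, a smooth muscle myosin light chain, had 49.8, 19.9 and 44.3 FPKM in NS-DADm, against 20.4, 17.9 and 43.9 FPKM in WT. It was high in the same libraries as the atrial transcripts, whose part in the shift of the list was not tested. Tpm2, the β-tropomyosin that lies along actin filaments, rose 2.79-fold (adjusted p = 0.0366, edgeR), with 28.3, 18.0 and 22.7 FPKM in NS-DADm, against 6.61, 6.08 and 15.2 FPKM in WT. In each group its highest levels were in the libraries high in atrial transcripts. Ctgf, a secreted matrix signalling protein, rose 2.25-fold (adjusted p = 0.0112), with 105, 79.7 and 109 FPKM in NS-DADm, against 36.6, 35.1 and 60.6 FPKM in WT, and in each group the libraries high in atrial transcripts were its highest. Tpm1, the main tropomyosin of the heart, fell 1.39-fold to 6622 ± 423 FPKM in NS-DADm, against 9423 ± 167 FPKM in WT (adjusted p = 0.00647). Pdlim5, a Z-disc protein and among the most abundant of the list, had 518 ± 52.9 FPKM in NS-DADm and 416 ± 23.4 FPKM in WT (adjusted p = 0.056), and passed with the atrial score with Nppa as a covariate (0.0125). That covariate was added after the data were seen. Of the 3 called genes, Tpm1 alone stayed called in every alternative. Tpm2 lost its call without NS-DADm 1, NS-DADm 3, WT 1 or WT 2, and with DESeq2's test (adjusted p up to 0.137) and Ctgf without WT 1 or WT 2 (up to 0.0593).

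The median log2 fold change was 0.01 over 20 tested partners of actin in the sarcomere. Against 3.2% called over all tested genes, 2 of these partners rose and 2 fell. Beside Tpm2 and Tpm1 these were Lmod2, a leiomodin that elongates thin filaments, which rose 1.36-fold to 591 ± 84.6 FPKM in NS-DADm, against 442 ± 14.4 FPKM in WT (adjusted p = 0.0425, edgeR), and Mybpc3, the cardiac myosin binding protein C, which fell 1.20-fold (adjusted p = 0.0366). Tnni3, the cardiac troponin I, was the most abundant partner apart from Tpm1, at 7079 ± 502 FPKM in NS-DADm and 7534 ± 441 FPKM in WT (adjusted p = 0.731). Lmod2 lost its call without any 1 sample other than NS-DADm 3, and Mybpc3 when any 1 sample was left out (highest adjusted p 0.138 and 0.159).

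In the machinery that nucleates, turns over, crosslinks and folds actin, 4 of 106 tested genes were called, or 3.77%, near the 3.2% of all genes. Of 31 nucleation and elongation genes, Lmod2 and Arpc1b, a subunit of the ARP2/3 complex, rose and none fell (median 0.08). Arpc1b had 35.3 ± 2.84 FPKM in NS-DADm and 28.4 ± 0.945 FPKM in WT (1.27-fold, adjusted p = 0.0437, edgeR), and passed without NS-DADm 2 but not without any other 1 sample, nor with any of 3 atrial covariates (adjusted p up to 0.174). Arpc2, the most abundant subunit of that complex here, had 105 ± 5.06 FPKM in NS-DADm and 109 ± 2.33 FPKM in WT (adjusted p = 0.826). Of 24 capping and crosslinking genes only Flnc, the muscle filamin that crosslinks actin, passed. It had 53.4, 56.7 and 57.7 FPKM in NS-DADm, against 37.8, 35.5 and 38.2 FPKM in WT, a rise of 1.53-fold (adjusted p = 0.00085) that stayed called in every alternative. The most abundant of that list, the crosslinker Actn2, had 882 ± 26.6 FPKM in NS-DADm and 794 ± 8.82 FPKM in WT (adjusted p = 0.159), and the capping protein Tmod1 182 ± 10.9 and 215 ± 5.64 FPKM (adjusted p = 0.0978). Of 28 genes of monomer binding and turnover none passed (median 0.05), with Tmsb4x, the abundant monomer-binding thymosin β, at 515 ± 54.6 FPKM in NS-DADm and 462 ± 35.5 FPKM in WT (adjusted p = 0.279, edgeR), and Gsn, the filament-severing gelsolin, at 648 ± 113 and 644 ± 86.6 FPKM (adjusted p = 0.932).

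Of 23 genes of actin folding and modification, 1 rose and the median was 0. Mical2, an enzyme that oxidises actin filaments and promotes their disassembly, had 26.0, 26.1 and 26.1 FPKM in NS-DADm, against 18.6, 19.7 and 22.3 FPKM in WT (1.30-fold, adjusted p = 0.0229, edgeR). Its call ended without NS-DADm 1, NS-DADm 2, WT 1 or WT 2 (adjusted p up to 0.106). The most abundant of the list were Pfdn5, a prefoldin subunit, at 164 ± 22.6 FPKM in NS-DADm and 173 ± 11.5 FPKM in WT, and Msrb1, which reverses actin oxidation, at 142 ± 6.66 and 149 ± 9.11 FPKM. Of 10 tested actin-related and actin-like genes none passed, and Actr3, the ARP3 subunit and the most abundant of them, had 57.2 ± 5.14 FPKM in NS-DADm and 55.8 ± 3.66 FPKM in WT, ahead of Actr1a, a dynactin subunit, at 50.2 ± 3.31 and 49.8 ± 1.34 FPKM.

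Acta1 belongs to the genes known to be used by fetal and overloaded hearts. Of 14 other tested genes of that kind 9 had a positive fold change, and the median log2 fold change was 0.24. Against 3.2% called over all tested genes, 3 of the 14 rose. These were Ctgf, Fhl1 and Rcan1, a regulator of calcineurin (1.30-fold, adjusted p = 0.0331, edgeR). Ctgf and Fhl1 are also on the SRF lists above. Myh7 had 49.1 ± 17.5 FPKM in NS-DADm and 29.65 ± 5.20 FPKM in WT (adjusted p = 0.119, edgeR). Smpx was lower in NS-DADm, at 337 ± 13.8 FPKM against 409 ± 25.2 FPKM (adjusted p = 0.0635, edgeR). Myh7 and Smpx were chosen after their values were seen. Nppa, the atrial natriuretic peptide, had 2329, 370 and 4204 FPKM in NS-DADm, against 404, 243 and 2728 FPKM in WT, and followed the other atrial transcripts (adjusted p = 0.587). Ankrd1, a stress-responsive protein of the I-band, had 440.0 ± 133 FPKM in NS-DADm and 523 ± 59.8 FPKM in WT (adjusted p = 0.561). Fhl1 lost its call without any 1 sample other than NS-DADm 2, and Rcan1 when any 1 sample was left out (highest adjusted p 0.109 and 0.115, edgeR).

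To find genes with a profile like that of Acta1, log2(FPKM + 1) was centred per gene over the 6 samples and the root mean square difference from Acta1 was taken for 7560 genes with a mean of at least 5 FPKM, leaving out the actins and gene models named Gm or Rik. The nearest were Mt2 (0.347), Agt (0.381), Cfp (0.389), Trf (0.407) and Ifi27 (0.410), where the median gene was at 0.842. Mt2, a metallothionein, had 83.2, 103 and 159 FPKM in NS-DADm, against 46.6, 48.9 and 49.6 FPKM in WT. Agt encodes angiotensinogen and had 7.90, 5.74 and 8.20 FPKM in NS-DADm, against 3.07, 2.75 and 2.74 FPKM in WT. Mt2 lost its call without WT 2 (adjusted p = 0.0501, edgeR). Cfp (properdin), Trf (transferrin) and Ifi27 (an interferon-induced gene) were also higher in every NS-DADm sample than in any WT sample. All 5 are genes whose groups did not overlap, which the measure of likeness to Acta1 favours, and the 6 samples set both the profile and the match.

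For the other members the nearest genes, and the median gene, were at smaller distances. They were Cbwd1, Gtf2h4 and Gemin7 for Actc1 (0.0239 to 0.029, against a median of 0.161), and Med11, Mcam and Dnajb1 for Acta2 (0.0771 to 0.0902, against 0.242). Mcam, a surface protein of pericytes and endothelial cells, was among the pericyte markers above. Snx15, Tnfaip1 and Cx3cl1 were nearest to Actb, and Cx3cl1, Kdelr3 and Ifi35 to Actg1, so the cytoplasmic actins shared Cx3cl1, a chemokine. For Actg2 they were Ggnbp1, Pyroxd1 and Adgra3, a match to a profile that rests on 3 to 10 counts per sample.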

How the data were processed

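Per the file headers, the authors deposited, for each of 6 libraries, tables of genes and of transcripts with an expected count (estimated reads per feature) and FPKM, the count scaled by length and library. The submitters' processing notes name HISAT; its version, the counting tool, the build and the annotation were not given in the sources used here. A gene that a sample's table did not list counted as 0. Total counts are given above, and the chi-square of counts per gene between libraries was 3.5 to 17.9, so none was a duplicate. The 1 row without a symbol was left out.

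Expected counts were rounded to whole numbers and filtered with filterByExpr, scaled by TMM and compared by the quasi-likelihood test of edgeR (4.0.16, in R 4.3.3), adjusted by Benjamini-Hochberg over all genes, or all transcripts, tested. Each standard error was the fold change divided by the square root of F. The edgeR test was tested on simulated counts, in which all genes shared the same setting for the spread between samples. Shares and log2 ratios of FPKM were compared with exact two-sided permutation tests. Alternatives were DESeq2 (1.42.0) size factors and Wald test, limma (3.58.1) on log2 FPKM, other filters, a replicate block, an atrial covariate and leaving out each sample. An atrial score with Nppa and a high or low atrial class (Myl7 over or under 100 FPKM) were added after the data were seen. The labels do not state that the replicate numbers pair the samples.

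The members and lists were chosen with earlier results of these data known. Named are all members, and from each list the called genes (at most 4) and the 2 most abundant; from each marker list the 2 most abundant and up to 3 called; the 5 genes most like Acta1 and the 3 most like any other member. Markers were also named to describe a cell type. Promoter windows are from RefSeq.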

Additional observations from a re-analysis of the deposited data

How the results depend on the processing

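Fold changes of Actc1, Actb and Actg1 stayed positive in every alternative, and the rise of Acta1 kept its direction in all 16 alternatives and its call in 10 (adjusted p from 0.00256 to 0.123, edgeR, DESeq2 or limma). With limma on log2(FPKM + 1) and log2(FPKM + 0.1), Acta1 had log2 fold changes of 1.38 and 1.39, and 272 and 267 genes were called in place of 420. With limma the calls of Abra, Arpc1b, Fhl1, Ifi27, Lmod2, Mical2, Rcan1 and Tpm2 also ended. Leaving out 1 sample gave 1.01 to 1.81 for Acta1, 117 to 382 called genes and 3 to 7 called transcripts in place of 17, with fewer samples in each fit. With high or low atrial content as a covariate Actc1 was called, at 0.25, but not with the planned atrial score. With a replicate block 895 genes and 2 transcripts were called and Acta1 stood at 1.41 (adjusted p = 0.00256). Deviations from the group mean correlated at -0.05, 0.33 and 0.398 between same-numbered samples, and at -0.439 to 0.19 between the others. Samples 2 and 3 of each group correlated best with their own number, and samples 1 did not. NS-DADm 3 and WT 3 were both high in atrial transcripts and NS-DADm 2 and WT 2 both low, while NS-DADm 1 was high and WT 1 low. The labels state no pairing. Whether the numbers mark a shared batch, or atrial content sets these correlations, was not tested. Within its own class the share of Acta2 was 0.417 points higher and that of Actg1 0.958 points higher. With 1 sample left out, the difference in share, NS-DADm minus WT, lay between -0.247 and 7.95e-05 points for Actb and between -0.184 and 0.0862 points for Actg1. The log2 fold change then lay between -0.17 and 0.11 for Acta2 and its transcript and between -0.06 and 0.19 for the shorter Actg1 transcript. Uncalled genes near 0 also changed sign when 1 sample was left out, Fabp4 by an amount that rounds to 0: Actr1a (-0.01 to 0.06), Actr3 (-0.01 to 0.13), Eno3 (-0.08 to 0.02), Fabp4 (0.00 to 0.11), Gsn (-0.07 to 0.16), Myl2 (-0.16 to 0.05) and Pfdn5 (-0.17 to 0.01). With the atrial covariates they were Dcn (-0.03 and -0.02), Eno3 (0.02 and 0.01), Gsn (-0.11 and -0.09) and Myl2 (0.04 and 0.02). The causes were not tested. Depth limits Actg2, with 3 to 10 counts in a sample, and the longer Acta1 transcript.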

Other observations

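Markers of other cells of the heart were set beside the actins. Of 10 macrophage markers all had a positive fold change and 5 rose in NS-DADm myocardium, against 3.2% called over all tested genes. C1qa, C1qb and C1qc were among the 5, although C1qb did not pass once WT 2 was left out (adjusted p = 0.0568, edgeR). C1qa, a complement subunit made by resident macrophages, had 86.8, 79.3 and 85.2 FPKM in NS-DADm, against 62.9, 58.4 and 59.6 FPKM in WT (1.41-fold, adjusted p = 0.00405, edgeR). Lyz2, the most abundant macrophage marker, had 138 ± 12.8 FPKM in NS-DADm and 112 ± 14.9 FPKM in WT (SD, n = 3 each) and did not pass (adjusted p = 0.119, edgeR). Of 10 endothelial markers none passed, and the most abundant were Fabp4, at 1269 ± 122 FPKM in NS-DADm and 1233 ± 21.1 FPKM in WT, and Eng, at 94.0 ± 8.28 and 78.6 ± 19.2 FPKM. Of 9 genes listed for ventricular muscle 1 fell, the potassium channel subunit Kcne1, to 0.447 ± 0.243 FPKM in NS-DADm, against 2.30 ± 0.230 FPKM in WT (adjusted p = 0.00444, edgeR). Kcne1 was the least abundant of that list, which also holds general sarcomere genes such as Tnni3 and Actn2. Of 11 tested atrial markers none passed, with a median log2 fold change of 0.66 and a spread set by the libraries: Myl4 had 604, 82.6 and 1029 FPKM in NS-DADm and 51.4, 10.6 and 736 FPKM in WT.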
